A study of Caenorhabditis elegans with 13 samples.

Results

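The genes described here carry only a name taken from the genomic clone on which they were predicted, such as C55A6.6, and were depleted from sorted body wall muscle cells of the Caenorhabditis elegans embryo both directly after dissociation and after 24 hr in culture. Each of 17118 genes on the array was represented by its brightest probe set that names no other gene, and 6718 of them had such a sequence-style name. A gene was kept where the mean log2 intensity of muscle less that of the reference was at most -1 at 0 hr and at most -1 at 24 hr, and where every muscle array lay below every reference array at both times. This left 141 genes, or 2.10% of those with a sequence-style name. Because these genes were chosen by the muscle and reference values of both times, their differences are given as a description, with no test.

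Muscle cells were myo-3::GFP positive cells of the strain PD4251, which carries the transgene integrated as ccIs4251, isolated by fluorescence-activated cell sorting, either from freshly dissociated embryos (M0, 3 arrays) or from dissociated embryos held in culture for 24 hr (M24, 3 arrays). The references were all living, that is propidium iodide negative, cells of embryos labelled wild type (N2), at 0 hr (R0, 3 arrays) and at 24 hr of culture (R24, 4 arrays). Within a group the arrays are biological replicates by their labels. Strain and cell type cannot be told apart in these comparisons, since muscle came from animals with the transgene and the reference from animals without it. Embryos of all 4 groups were released with bleach and freed of the eggshell with chitinase. The myo-3 promoter is active in body wall muscle and also in the anal depressor and sphincter muscles. Sorted muscle still held some GFP-negative cells, and the reference contains muscle cells itself.

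Body wall muscle of the nematode is a striated muscle of mesodermal origin that works against the cuticle to bend the animal. The rest of the embryo at these stages is mostly neurons, epidermis, pharynx, intestine and their precursors. A transcript that is used in any of these tissues and little in muscle is expected to be at a lower level in a muscle sort than among all cells. A sequence-style name means that no gene name based on a mutant, a protein family or an experiment is in use for the gene in the tables used here. In bulk samples, fewer cells of a type and less RNA per cell cannot be told apart.

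Median intensity lay between 49.2 and 58.0 on the 13 arrays. All 10 body wall muscle marker genes were higher in muscle by at least 1 on the log2 scale with no overlap at both times, with medians of 2.70 at 0 hr and 2.21 at 24 hr. M24 replicate 3 had a narrower range of values than the other M24 arrays, 3.91 between the lowest and the highest decile on the log2 scale, against 4.50 and 4.86. The values of the 2 times appear to come from separate normalizations, because arrays of 1 time shared many identical values and arrays of different times shared 0 or 1. Levels of muscle were therefore set only against the reference of their own time.

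The 141 genes had a median difference of -1.68 between M0 and R0 and of -1.62 between M24 and R24, while all genes had a median of 0.10 at either time. The differences reached down to -4.03 at 0 hr and lay between -3.95 and -1.04 at 24 hr. At each time 96 genes lay between -1 and -2, 40 between -2 and -3, and 5 at -3 or below. 23 genes were at -2 or below at both times and 25 were above -1.5 at both. The gap between the highest muscle array and the lowest reference array had a median of 1.03 at 0 hr and 0.86 at 24 hr, and it was at least 1 at both times for 42 genes. The limits of 0 hr alone were met by 6.99% of all 17118 genes and those of 24 hr alone by 6.3%. Both were met by 535 genes (3.13%), and by 394 of the 10400 genes with any other name (3.79%). The mirrored limits, for genes higher in muscle at both times, were met by 77 genes with a sequence-style name (1.15%).

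**Figure D1:**
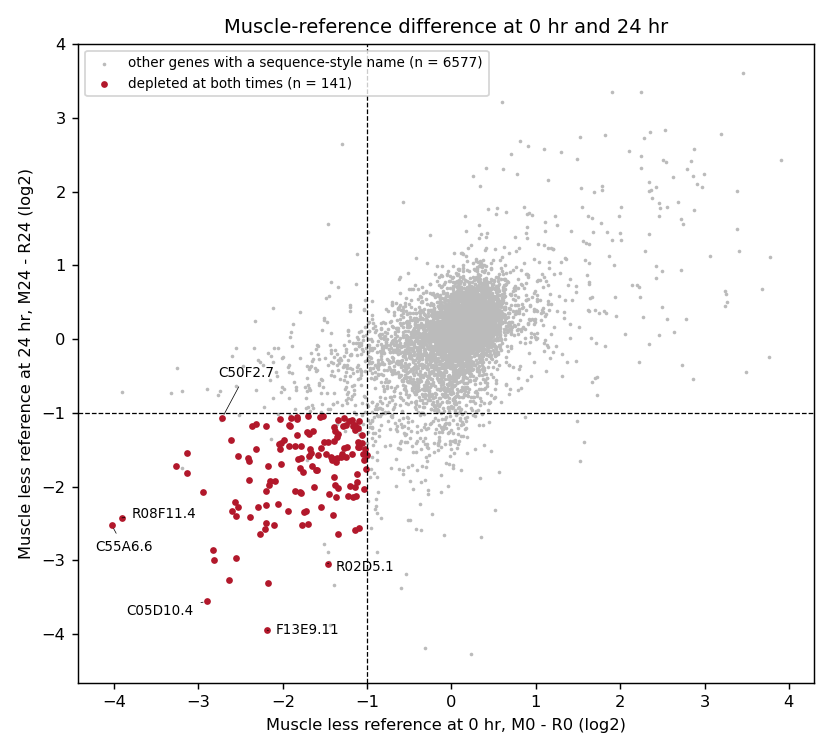
Difference between muscle and reference at 0 hr (horizontal axis, M0 less R0, log2) and at 24 hr (vertical axis, M24 less R24, log2) for each gene with a sequence-style name. Red points are the 141 genes depleted at both times, dashed lines are the limits of -1, and grey points inside the lower left box are the 22 genes past both limits whose arrays overlap. The bulk of the grey points lies near 0, and the red points reach down to -4.03 at 0 hr and -3.95 at 24 hr.

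The depth of depletion varied between the times. Among the 141 genes, Pearson's r between the differences was 0.36 and Spearman's rho 0.29, across genes that were cut at the same limit on both axes. The difference was lower at 24 hr in 73 genes and lower at 0 hr in 68. It changed by less than 0.5 in 83 genes, was lower at 24 hr by 1 or more in 7 and lower at 0 hr by 1 or more in 10. Of the other genes with a sequence-style name, 221 met the limits at 0 hr only and 189 at 24 hr only.

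The limma fit of each comparison over all genes (adjusted p under 0.05 and at least 1.7 fold) called 137 of the 141 lowered at 0 hr, where it called 8.51% of all genes lowered, and all but 19 of the 141 at 24 hr, where it called 6.21%. The fit used the values that chose the genes, so nothing is read from these counts. The 24 hr count of genes called came to 72 of 141 without M24 replicate 1, against 2.79% of all genes, and to 81 without R24 replicate 2, against 3.18%. A replicate block gave 89 of 141, against 3.68%. With scan day as a random block it was 60 of 141, against 2.16% of all genes. R24 replicate 4, whose scan day is not known, was given a day of its own in that fit.

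**Figure D2:**
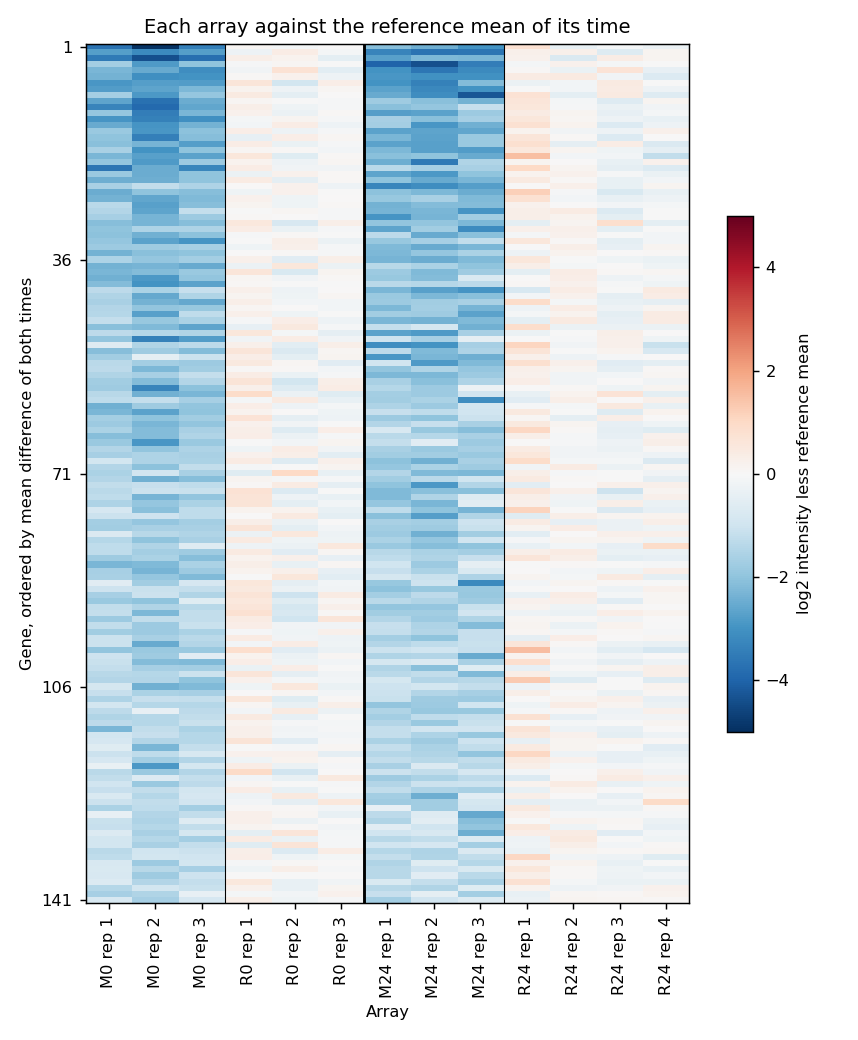
Log2 intensity of the 141 genes (rows, ordered by the mean of both differences) on each of the 13 arrays (columns), less the mean of the reference arrays of the same time. Blue is below and red above the reference mean. Every muscle column is blue in every row, most deeply in the upper rows, and M0 replicate 2 is the darkest M0 column.

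The muscle arrays were not equally low. M0 replicate 2 was the lowest M0 array in 86 of the 141 genes and M0 replicate 1 the highest in 76. M24 replicate 2 was the lowest M24 array in 60 genes, and M24 replicate 3, with its narrower range, the highest in 64. On the reference side R0 replicate 1 was the highest R0 array in 84 genes and R24 replicate 1 the highest R24 array in 70. The SD within a group had a median of 0.34 in M0, 0.34 in R0, 0.38 in M24 and 0.36 in R24.

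C55A6.6 had the lowest difference of the 141 at 0 hr. Its log2 intensity was 5.37, 4.10 and 5.62 on the M0 arrays and 9.16, 8.96 and 9.06 on the R0 arrays, a difference of -4.03 ± 0.35 (SE), or 16.3-fold lower in muscle. After culture it had 5.86, 5.57 and 5.02 in M24, against 8.75, 7.62, 7.92 and 7.72 in R24, a difference of -2.52 ± 0.32. The R0 arrays lay close together, and the spread at 0 hr came from M0 replicate 2. Of its direct neighbours in RefSeq gene order, sdz-8 was at -3.12 at 0 hr and -1.89 at 24 hr, and C55A6.3 at -0.16 and 0.02.

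R08F11.4 had 6.80, 5.94 and 6.55 in M0, against 10.63, 10.53 and 9.85 in R0, a difference of -3.91 ± 0.28. After culture it had 5.79, 6.27 and 6.22 in M24, against 8.72, 7.79, 8.87 and 8.67 in R24, a difference of -2.42 ± 0.28. No array of either muscle group came within 1.5 of a reference array of its time.

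T23C6.4 had 4.82, 4.25 and 5.54 in M0, against 8.43, 7.90 and 8.07 in R0, a difference of -3.27 ± 0.31. At 24 hr its difference was -1.72 ± 0.29, with 4.08, 4.25 and 5.03 in M24 and 6.72, 6.11, 5.83 and 6.01 in R24. Its highest M24 array, replicate 3, stood 0.81 below its lowest R24 array. T23B3.6 had 6.36, 5.94 and 6.24 in M0, against 9.23, 9.46 and 9.28 in R0, a difference of -3.14 ± 0.18. After 24 hr it was at -1.81 ± 0.25, so that in both genes the difference was shallower after culture.

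C06E4.3 had 4.94, 6.10 and 5.34 in M0, against 8.96, 8.42 and 8.43 in R0, a difference of -3.14 ± 0.30, and -1.54 ± 0.38 at 24 hr. Here M0 replicate 2 was the highest M0 array, unlike in most of the genes. Y66D12A.24 had 6.36, 5.28 and 6.52 in M0, against 9.10, 8.96 and 8.93 in R0, a difference of -2.95 ± 0.30. It was at -2.07 ± 0.29 at 24 hr. These 6 genes have no protein description in the tables used here.

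F13E9.11 had the lowest difference of the 141 at 24 hr. It had 6.85, 6.46 and 7.37 in M24, against 10.74, 11.06, 10.76 and 10.81 in R24, a difference of -3.95 ± 0.22, or 15.4-fold lower in muscle. At 0 hr it had 10.15, 9.02 and 9.84 in M0, against 11.79, 11.96 and 11.81 in R0, a difference of -2.18 ± 0.27. The reference arrays lay close together at both times, and the muscle arrays spread more widely.

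C05D10.4 was among the 8 lowest at both times. It had 5.84, 5.41 and 5.84 in M0, against 8.33, 8.97 and 8.51 in R0, a difference of -2.90 ± 0.22. The cultured cells had 5.56, 5.18 and 5.24 in M24, against 9.14, 9.14, 8.23 and 9.03 in R24, a difference of -3.56 ± 0.25 (11.8-fold lower). R24 replicate 3 was low among its group and still 2.66 above the highest M24 array. C01G6.3 was also among the 8 lowest at both times, at -2.82 ± 0.35 and -2.86 ± 0.31. It had 6.32, 6.48 and 6.47 in M0, against 9.85, 8.32 and 9.58 in R0, and 6.73, 6.32 and 7.54 in M24, against 9.44, 9.56, 10.19 and 9.68 in R24. R0 replicate 2 was the low reference array at 0 hr.

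C15H9.11 averaged 5.04 ± 0.32 in M24, against 8.30 ± 0.51 in R24 (SD, n = 3 and 4), a difference of -3.26 ± 0.30, and was at -2.64 ± 0.33 at 0 hr. M176.5 had 6.41, 6.29 and 6.30 in M24, against 9.76, 9.77, 9.14 and 8.66 in R24, 8.0-fold lower in muscle, and was at -2.81 ± 0.23 at 0 hr. Both thus held a deep difference at either time. T19B10.2 had 6.38, 5.77 and 4.64 in M24, against 9.63, 8.39, 9.33 and 8.24 in R24, a difference of -3.30 ± 0.49. It was at -2.17 ± 0.34 at 0 hr, and its spread at 24 hr was wide in both groups.

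ZC513.7, which RefSeq annotates as a pseudogene, had 7.17, 6.61 and 6.83 in M24, against 9.81, 9.70, 10.26 and 9.57 in R24, a difference of -2.97 ± 0.21. At 0 hr it had 6.16, 6.32 and 6.70 in M0, against 9.11, 8.71 and 9.03 in R0, a difference of -2.55 ± 0.21. The groups were over 2 apart at both times.

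**Figure D3:**
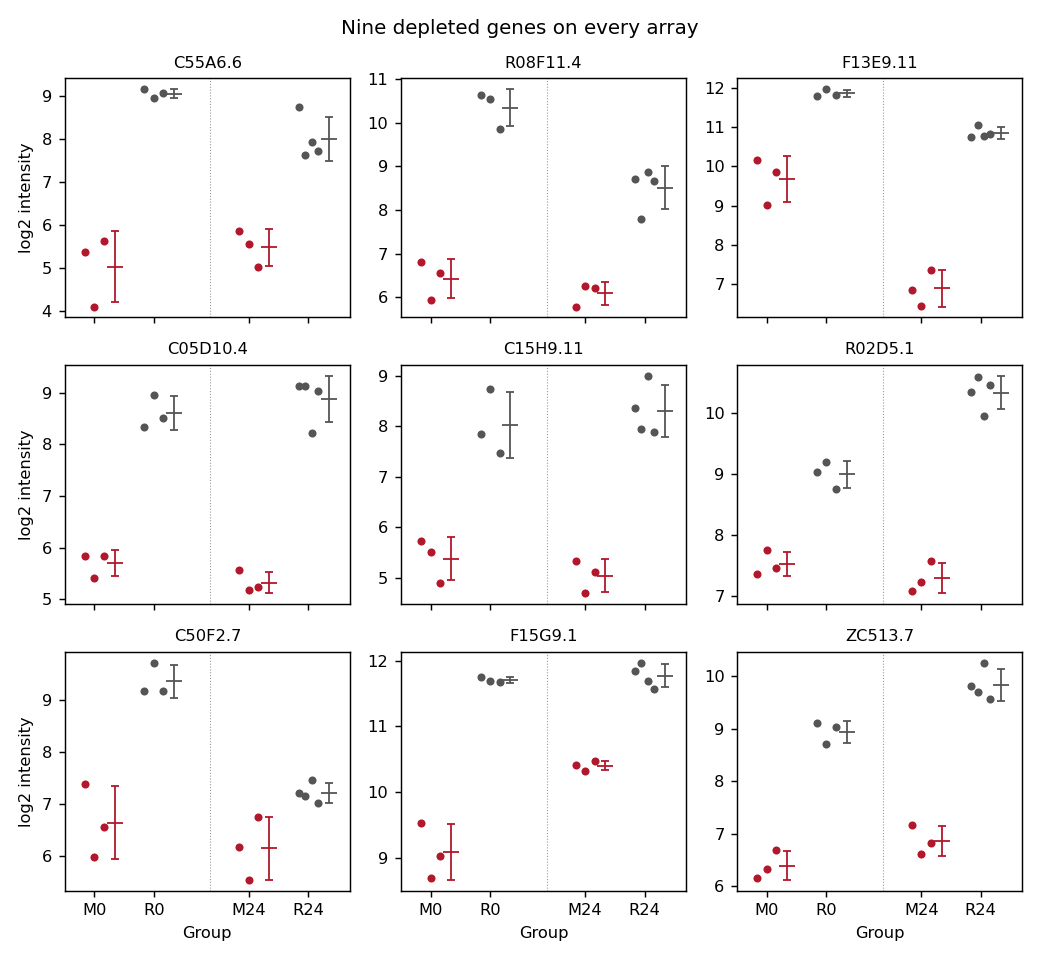
Log2 intensity (vertical axis) of 9 of the depleted genes on every array, by group (horizontal axis), with muscle in red and reference in grey. Points are arrays, and the bar beside them is the group mean with its SD (n = 3 in M0, R0 and M24, n = 4 in R24). In each panel all muscle points lie below the reference points of the same time. Vertical scales differ between panels, and 0 hr and 24 hr levels were normalized separately.

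In some genes the depth of depletion differed between times by more than 1.4. R02D5.1 had 7.08, 7.24 and 7.57 in M24, against 10.34, 10.59, 9.96 and 10.46 in R24, a difference of -3.04 ± 0.19. At 0 hr it had 7.36, 7.75 and 7.46 in M0, against 9.03, 9.20 and 8.75 in R0, a difference of -1.47 ± 0.20. T03F6.3 was at -2.55 ± 0.19 at 24 hr and at -1.09 ± 0.32 at 0 hr, where M0 replicate 2 at 5.46 and R0 replicate 2 at 5.47 nearly touched. F13E9.11 completes the 3 genes that were deeper at 24 hr by most.

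The 3 genes that were deeper at 0 hr by most were C50F2.7, C06E4.3 and T23C6.4. C50F2.7 had 7.37, 5.97 and 6.56 in M0, against 9.17, 9.71 and 9.18 in R0, a difference of -2.72 ± 0.33. At 24 hr it had 6.16, 5.53 and 6.74 in M24, against 7.21, 7.15, 7.46 and 7.01 in R24, a difference of -1.06 ± 0.27. The M24 arrays came within 0.27 of the R24 arrays, close to the limit, and without M24 replicate 2 or without R24 replicate 3 the gene no longer met it.

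Several genes were bright in the reference, so that their lower muscle values were still well above the middle of the array. F15G9.1 had 9.54, 8.70 and 9.02 in M0, against 11.75, 11.69 and 11.68 in R0, a difference of -2.62 ± 0.23 (6.14-fold lower). The 24 hr values were 10.41, 10.33 and 10.47 in M24, against 11.85, 11.97, 11.70 and 11.57 in R24, a difference of -1.37 ± 0.13. In the annotation gathered by the study from WormBase, a reporter of F15G9.1 is described in all larval cells and more strongly in muscle and hypodermis. The samples here are embryonic.

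Y43F8B.2 had 9.46, 9.10 and 9.46 in M0, against 11.43, 11.56 and 11.49 in R0, a difference of -2.16 ± 0.18. In culture the values were 10.61, 9.37 and 9.82 in M24, against 11.81, 12.14, 11.90 and 11.79 in R24, a difference of -1.97 ± 0.28. M24 replicate 1 was the high array among the muscle cells and lay 1.18 below the lowest reference array. Y110A2AL.4 had 6.91, 7.05 and 8.35 in M24, against 11.08, 9.83, 10.27 and 8.90 in R24, a difference of -2.58 ± 0.55. At 0 hr it was at -1.15 ± 0.30, and M0 replicate 1 at 11.30 came within 0.08 of R0 replicate 2 at 11.38.

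C04C3.4 and T07F10.5 were bright at 24 hr and alike on every array. C04C3.4 had 9.76, 8.91 and 10.34 in M24, against 11.26, 11.80, 12.05 and 12.05 in R24, a difference of -2.12 ± 0.35, and was at -1.22 ± 0.23 at 0 hr. T07F10.5 had 9.91, 9.24 and 10.49 in M24, against 11.40, 12.31, 12.14 and 12.20 in R24, a difference of -2.13 ± 0.33, and was at -1.13 ± 0.24 at 0 hr. The annotation places C04C3.4 in a group of proteins related to cyclin A, a cell cycle regulator. Both genes are read by probe sets with the suffix _x_at, which the array maker gives where probes may bind transcripts of other genes. Whether they read shared sequence was not tested.

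As a group the 141 genes were brighter in the reference than most genes with a sequence-style name. The mean of 138 of them was above the median probe set in R0 and that of 140 in R24, against 41.6% and 40.9% of all genes with a sequence-style name. In muscle 99 of the 141 (M0) and 93 (M24) were still above it, against 43.0% and 41.6% of all genes with a sequence-style name. A difference of -1 or lower needs room above the dim end of the scale, so brightness in the reference follows in part from the limits.

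A protein description was found for 12 of the 141 genes, and a site of expression, from reporters, for 4 others. That annotation was held only in part, so the remaining 125 are not thereby without one. The described proteins belong to no single function.

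Among enzymes and transporters, R05H5.3 is annotated as a nucleoredoxin, a thioredoxin-like protein that acts on disulfide bonds. It had 5.53, 5.33 and 5.52 in M0, against 8.20, 6.84 and 7.93 in R0, a difference of -2.20 ± 0.32, and was at -2.06 ± 0.33 at 24 hr. R0 replicate 2 was the low reference array. K02G10.5, annotated as an organic anion transporter, had 5.87, 5.54 and 5.77 in M24, against 8.04, 8.36, 7.67 and 8.20 in R24, a difference of -2.34 ± 0.19, and was at -1.74 ± 0.19 at 0 hr. B0228.7, annotated as methylthioadenosine phosphorylase, an enzyme of methionine salvage, was at -1.83 at 0 hr and -1.09 at 24 hr. ZK909.3, annotated as a hydrolase of guanosine polyphosphates like human HDDC3, was at -1.29 and -1.18. F33G12.6, with only a general term for catalytic activity, was at -1.13 and -1.83.

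Among genes related to the cuticle and matrix by annotation, W01C8.5 encodes a protein with DM13 and DOMON domains like the fly protein knickkopf, which is needed for chitin order in the fly cuticle. It had 9.52, 8.95 and 9.78 in M0, against 10.90, 10.99 and 11.12 in R0, a difference of -1.59 ± 0.23. At 24 hr it had 7.39, 7.76 and 7.57 in M24, against 9.15, 9.74, 9.04 and 9.46 in R24, a difference of -1.77 ± 0.19. F31F7.2, whose best human match is type XIV collagen, was at -2.03 ± 0.40 and -1.49 ± 0.34, with its R0 arrays between 6.15 and 7.66.

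Among genes with annotation related to the cell cycle, centrosome or chromatin, C33D9.13, which matches a human centrosomal protein, had 7.55, 8.41 and 6.25 in M24, against 9.28, 9.57, 9.47 and 9.41 in R24, a difference of -2.03 ± 0.45. At 0 hr it was at -1.04 ± 0.34, with a gap of 0.11 between the groups. The M24 arrays spread over more than 2 while the R24 arrays lay within 0.3. K05C4.9, grouped with kinases like ZYG-1, which in the nematode starts centriole duplication, was at -1.31 at 0 hr and -1.60 at 24 hr. K03B8.4, grouped with a subunit of the SWI/SNF chromatin remodeling complex, was at -1.10 at both times.

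Besides F15G9.1, a few genes had a described site of expression. ZK287.1, described in larval intestine and nervous system, had 8.23, 7.39 and 8.41 in M0, against 10.37, 9.96 and 10.32 in R0, a difference of -2.20 ± 0.27. At 24 hr it was at -2.49 ± 0.44, with 6.95, 5.87 and 7.93 in M24 and 9.55, 9.43, 9.05 and 9.62 in R24. C06C3.4, described in hypodermal cells and carrying a term for rhodopsin-like receptors, was at -1.39 ± 0.31 and -1.87 ± 0.46. M60.6, described in vulval muscle, pharynx, tail neurons and gonadal sheath, was at -2.02 ± 0.20 and -1.41 ± 0.23. It had 5.41, 4.96 and 5.26 in M0, against 7.43, 7.04 and 7.21 in R0. Vulval muscle forms after hatching and is not among the cells sorted here. Y73F4A.2, with a term for dopamine beta-monooxygenase and a described site in larval pharynx, was at -1.39 ± 0.39 and -1.97 ± 0.22.

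Another probe set for the same gene was available for 50 of the 141 genes, 56 probe sets in all. The rule did not use them. By choice of the brightest they were all dimmer. Of the 56, 43 were below 0 at both times, 8 above 0 at both and 5 of mixed sign, and 11 met the limits (19.6%). Among the other probe sets of all remaining genes 2.48% met the limits and 30.8% were below 0 at both times. The median over the 56 was -0.48 at 0 hr and -0.60 at 24 hr. Of the 25 whose mean lay above the median probe set 9 met the limits and 24 were below 0 at both times, while of the 31 at or under it 2 met the limits and 19 were below 0 at both.

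Some of the genes that were bright in the reference had like differences in their other probe sets. In F15G9.1 the other probe set had 7.44, 7.13 and 7.91 in M0, against 10.26, 9.77 and 10.13 in R0, a difference of -2.56, and was at -1.09 at 24 hr. Both further probe sets of Y43F8B.2 met the limits, at -1.76 and -1.55 at 0 hr and at -1.94 and -1.71 at 24 hr. W01C8.5, Y110A2AL.4, C01G6.3 and T19B10.2 each had another probe set that met them. In each of these genes, F15G9.1 and Y43F8B.2 included, a probe set with the suffix _s_at or _x_at was among those compared. The probes of such sets may be shared with other transcripts. Whether the probe sets of a gene are independent readings was not tested.

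C05D10.4 was split. Of its other probe sets 1 was at -1.65 at 0 hr and -2.82 at 24 hr, and the remaining probe set at 0.19 and 0.28. T23C6.4, at -3.27 at 0 hr by its brightest probe set, was at -0.15 by its other, and ZC513.7, at -2.55, was at -0.07. C18C4.7, at -2.53 at 0 hr by its brightest, was at 0.07, 0.27 and -0.84 by its other 3. For 40 of the 50 genes no other probe set met the limits in full, and some of these were still low, such as that of T02E9.5 at -1.91 and -1.26, that of H42K12.3 at -1.14 and -0.97, and that of R02D5.1 at -0.44 and -2.09. For F31F7.2 the other probe set was at -0.27 and 0.02, for C06C3.4 at 0.15 and -0.02, and for K02G10.5 at -0.07 and -0.61.

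**Figure D4:**
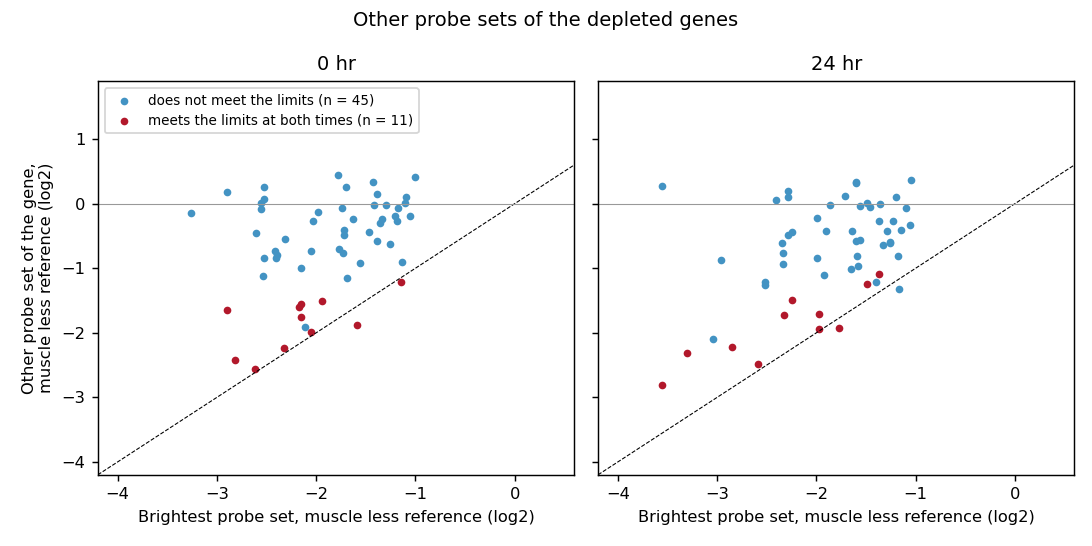
Difference between muscle and reference for the 56 other probe sets of 50 of the depleted genes (vertical axis, log2) against that of the brightest probe set, which chose the gene (horizontal axis, log2), at 0 hr on the left and 24 hr on the right. The dashed line marks equal values. The 11 probe sets in red met the limits at both times and lie from just under the line to well above it, as in C05D10.4 at -1.65 against -2.90 at 0 hr, and most of the 45 in blue lie between the line and 0.

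By gene type 135 of the 141 are protein coding in RefSeq (95.7%), 5 are pseudogenes (3.55%) and 1, T09F5.12, is a long noncoding RNA. Among all genes with a sequence-style name 91.6% are protein coding and 7.58% pseudogenes. Besides ZC513.7 the pseudogenes are K02E7.5, K02E7.6, Y41E3.5 and T07G12.8. T07G12.8 had 9.83, 9.26 and 9.91 in M24, against 11.15, 11.69, 11.91 and 11.91 in R24. T09F5.12 had 8.61, 7.07 and 7.25 in M0, against 9.28, 9.99 and 9.15 in R0, a difference of -1.83, and was at -1.05 at 24 hr. Probe sets with the suffix _s_at, whose probes are shared by several transcripts, read 39 of the 141 (27.7%), against 16.1% of the genes with a sequence-style name. The suffix _x_at was that of 8 (5.67%), against 3.94%.

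In RefSeq gene order the 141 genes had 219 direct neighbours with a probe set, and 11 of these met the same limits (5.02%), where 3.13% of all genes did. Of the 11, 2 are Y73F4A.1 and Y73F4A.2, each counted as the neighbour of the other, which met the limits by choice. The other 9 are genes with another kind of name, and of all such genes 3.79% met the limits. How many of the 219 have such a name was not computed, so no share can be set beside that figure. The shares of 5.02% and 3.13% were not tested against each other. The 9 were sdz-8 beside C55A6.6, bug-1 beside T01D3.3, irg-2 beside C49G7.10, irg-1 beside T24A6.7, dyf-7 beside F15G9.1, magu-3 beside C50F2.7, rab-28 beside Y11D7A.3, hgo-1 beside C31H5.5 and crn-4 beside AH9.3. irg-1 and irg-2 are known as infection response genes, dyf-7 as a gene needed to anchor growing dendrites of sensory neurons, and rab-28 as a small GTPase gene of ciliated neurons. bug-1 was at -3.05 at 0 hr and -2.25 at 24 hr, irg-2 at -2.45 and -1.92, and dyf-7 at -2.18 and -1.81.

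Y73F4A.1 and Y73F4A.2 were the only direct neighbours that both belonged to the 141. Y73F4A.2 had 6.17, 6.77 and 6.14 in M0, against 7.15, 8.73 and 7.36 in R0. Y73F4A.1 had 4.67, 5.56 and 4.66 in M0, against 5.86, 6.41 and 5.67 in R0, a difference of -1.02 ± 0.29, and was at -1.77 ± 0.16 at 24 hr. In both genes M0 replicate 2 and R0 replicate 2 were the high arrays. The pairs K02E7.6 and K02E7.5, F14D7.8 and F47B8.2, and H42K12.3 and F21E9.2 had 1 gene between them. K02E7.5 was at -2.10 and -1.93, and K02E7.6 at -1.55 and -2.28.

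Just inside the limit at 0 hr were H11E01.3, at -1.004 and with -1.56 at 24 hr, and Y73F4A.1. Just outside it were F31A9.2, at -0.99 and with -2.19 at 24 hr, and C29H12.6, at -0.99 and with -1.59. H11E01.3 had 8.85, 8.19 and 8.76 in M0, against 9.35, 10.10 and 9.36 in R0. Its other probe set was at 0.42 at 0 hr and -0.56 at 24 hr. F31A9.2 had 4.05, 3.32 and 3.32 in M0, against 4.57, 4.49 and 4.59 in R0, so that a gene with no overlap was left out by 0.01. A further 22 genes were past both limits but overlapped at 1 time or both. Among them C54D10.3 was at -3.87 at 24 hr, with 6.81, 6.53 and 5.41 in M24 and 9.95, 10.70, 10.33 and 9.52 in R24. At 0 hr its R0 arrays 1 and 3, at 6.83 and 6.67, fell below M0 replicate 1 at 6.97. Leaving out each of the 13 arrays in turn, 93 of the 141 met the limits every time. Of the genes described singly, C33D9.13, C50F2.7, H11E01.3, T03F6.3, T07F10.5, Y110A2AL.4, Y73F4A.1 and Y73F4A.2 each failed them without at least 1 of the arrays. Of the other depleted genes given with values, B0228.7, F33G12.6, K03B8.4, T07G12.8, T09F5.12 and ZK909.3 did so too.

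At 0 hr a muscle and a reference array shared a scan day in 2 cases. Between M0 replicate 1 and R0 replicate 1 the 141 genes had a median difference of -1.73, with 124 at -1 or below, where 10.1% of all genes were. Between M0 replicate 2 and R0 replicate 3 the median was -1.82, with 130 at -1 or below, where 9.25% of all genes were. Both days use arrays that chose the genes, and since every M0 array had to lie below every R0 array, no such difference could be above 0, so these values are a description only. The highest single difference was -0.18 on the first day and -0.11 on the second. At 24 hr no known scan day held both groups. R24 replicates 1, 2 and 3 shared a scan day, each M24 array had its own, and the day of R24 replicate 4 is not known. The paper cites an earlier study for the R24 arrays. Scan day and cell type cannot be told apart at 24 hr.

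Many markers of neurons and epidermis were also lower in muscle. Of 20 neuronal markers 10 met the limits at 0 hr and 7 at 24 hr, with medians of -1.21 and -0.77. The log2 of their summed linear intensity, in which the brightest markers weigh most, was 11.88 to 12.27 in M0, against 13.55 to 13.60 in R0. It was 11.90 to 12.44 in M24, against 13.17 to 13.96 in R24. Of 15 epidermal markers 11 met the limits at 0 hr and 10 at 24 hr, with medians of -1.43 and -1.82. The log2 of their summed intensity was 11.44 to 12.10 in M0, against 13.46 to 13.68 in R0, and 11.04 to 11.41 in M24, against 13.32 to 13.78 in R24. The 14 measured intestinal markers had medians of 0.01 and 0.02, with 0 and 1 meeting the limits. Several of these were dim, such as vit-2 at 3.48 in R24. Those brightest in R24, act-5, asp-1 and ifb-2, were at -1.35, -1.68 and -1.32 at 24 hr. In the other direction cpr-1 was higher in muscle at 24 hr, at 1.57. The 12 germline and maternal markers had medians of 0.09 and -0.13, with 0 and 1 meeting the limits. The log2 of their summed intensity was 10.34 to 10.65 in M0, against 10.91 to 11.13 in R0. It was 11.29 to 12.35 in M24, against 12.28 to 12.68 in R24. Those brightest in R24, vbh-1 and mex-3, were at -0.95 and -0.84 at 0 hr and at -0.96 and -0.89 at 24 hr. Others were higher in muscle, such as puf-5 at 0.45 and 0.55. Of 11 pharyngeal markers 4 met the limits at 0 hr and 0 at 24 hr, with medians of -0.87 and -0.49, and peb-1 was higher in muscle at 24 hr, at 1.82. Of 3 coelomocyte markers 2 met the limits at 0 hr and 0 at 24 hr, with medians of -1.30 and -0.23. Of 7 measured glial markers 1 and 2 met them, with medians of -0.37 and -0.04, and of 6 excretory markers none did, with medians of -0.16 and -0.10. Summed pharyngeal levels were 9.77 to 9.96 in M0, against 10.97 to 11.20 in R0. Coelomocyte sums were 8.13 to 8.34, against 8.61 to 9.48. Both lists overlapped at 24 hr. Glial sums were 9.07 to 9.60 in M0, against 10.09 on every R0 array, and 8.97 to 9.32 in M24, against 9.60 to 9.94 in R24. Intestinal and excretory sums overlapped at both times. No probe set on these arrays had an intensity of 0, so a value above 0 does not show that a marker was expressed. The part of each tissue in the levels of the 141 genes was not tested.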

How the data were processed

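Embryonic cells of Caenorhabditis elegans were profiled on Affymetrix arrays, 1 RNA sample per array. The authors amplified and biotin-labelled the RNA and summarised probe sets by robust multiarray analysis (RMA, version not given in the sources used here). The deposited values are probe-set intensity on a linear scale and were log2-transformed here without a pseudocount. Deposited scanner settings (other text, not measurements) gave the scan day of all arrays but R24 replicate 4. Of 22548 probe sets 20766 name 1 gene, and symbols come from the platform annotation. All 141 genes were found in the RefSeq gene table (WBcel235), used for gene type and order only. The genes and lists were chosen with earlier results of these data known.

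Muscle was compared with the reference of its time using limma 3.58.1 (R 4.3.3, lmFit and eBayes, two-sided), with Benjamini-Hochberg adjustment over 17118 genes. SE is that of this fit, which takes arrays as independent, and differences are mean log2 muscle less mean log2 reference. Genes described singly are the 8 with the lowest difference at each time, the 4 brightest in each reference, the 3 whose difference changed most in either direction, the 2 on either side of the limit, neighbours of each other, and up to 8 more with an annotation. The other genes named were chosen after their values were seen. The fit was also run on simulated data with independent noise on each array. In the real 24 hr data the fitted correlation within a scan day was 0.58, so nothing is read from the simulation. At 0 hr same-numbered muscle and reference arrays deviated together (correlations of 0.25, 0.32 and 0.12 over genes, a hint from the data and not from the labels), and a replicate block there called 1556 genes lowered, against 1456 without it. The number of arrays limits the precision. No sequence table was used, so the planned searches of promoters and proteins were not run. Alternatives covered normalization, left-out arrays, replicate and scan day blocks, probe set choice, limits and dim genes. Figures were drawn with matplotlib 3.10.9.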

Additional observations from a re-analysis of the deposited data

Results flagged for a closer look

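C05D10.4 stood out among the R24 arrays. R24 replicate 3 was at 8.23 on the log2 scale while the other R24 arrays lay between 9.03 and 9.14, a gap larger than Dixon's test at the 95% level allows for 4 samples. The highest M24 array was at 5.56. 33 groups of 4 arrays were tested in this way, and chance flags about 1 in 20.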

How the results depend on the processing

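The number of genes meeting the limits was 150 with median centring (139 of them among the 141), 115 with the mean of all probe sets of a gene (113 shared), 120 among genes above the median level, 197 with a limit of 1.7 fold and 55 with a limit of -1.5. With quantile normalization 110 of the 141 met them. Leaving out 1 array gave between 133 and 152, of which 126 to 140 were shared. A replicate block gave 147 (140 shared) and scan day as a block 142 (129 shared). With 24 hr arrays the calls over all genes were less stable. limma called 1063 genes lowered in M24, 630 with a replicate block, 369 with scan day as a random block, and between 477 and 1150 when 1 array was left out, with 477 without M24 replicate 1, 544 without R24 replicate 2 and 693 without R24 replicate 4. The cause was not tested. At 24 hr same-numbered arrays did not all deviate together (correlations of 0.19, -0.01 and 0.36), so the numbers were not taken as pairs. In M0 the count stayed between 1137 and 1975, within 1.5 times of 1456. The median over the 32 genes chosen for description was -2.18 at 0 hr and -1.78 with the mean of all probe sets. Of their 800 single values 50 moved by more than the spread between replicates. With the mean of all probe sets 16 of 64 moved, and with scan day as a fixed block 2 of 32. Within the shared scan days 12 of 32 and 20 of 32 moved. The 800 include values that could not move, such as those of a replicate block at 0 hr, so the pooled count is no sign of stability. That none of the 800 turned positive is fixed by the choice of genes when an array is left out or within a scan day, and is no sign of stability there. With 3 or 4 arrays per group the SE of a difference had a median of 0.27 over the 141 genes at either time, which limits what can be said of genes near the limit. This SE takes the arrays as independent, so at 24 hr, where R24 arrays shared a scan day, it may be too small.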
